A study of Mus musculus with 2 samples.

Results

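Th17 cells are a helper T cell lineage named for its IL-17, and 5 genes of that programme are described here: Il17a, Il17f, Il21 and Il22, which encode its effector cytokines, and Il17re, which encodes a receptor chain of the IL-17 family. They were taken by gene name from the 16385 genes of the authors' deposited table, where each name stood on 1 row. RNA was sequenced from 1 group of samples, Malat1 knockout Th17 cells of the C57BL/6 strain, in 2 libraries that the submitters call independent biological replicates. Malat1 is a long non-coding RNA that stays in the nucleus, and the comparison asks how Th17 cells differ without it. Naive CD4+ T cells had been cultured for 72 h with anti-CD3ε at 0.25 µg/mL, anti-CD28 at 1 µg/mL, TGF-β at 0.1 ng/mL and IL-6 at 20 ng/mL. Replicate 2 is Malat1 knockout by its title, which was followed, but Malat2 knockout by another of its labels. The wild-type Th17 libraries to which the authors compared these cells belong to another series and were not analysed here singly. Genotype and series therefore cannot be told apart, and the age and sex of the animals, the knockout allele and any pooling are unstated in the labels.

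IL-17A and IL-17F are closely related cytokines that form homodimers and a shared heterodimer. Both signal through IL-17RA and IL-17RC, mainly on epithelial and stromal cells, which respond with neutrophil-attracting chemokines and antimicrobial peptides. IL-21 acts on T and B cells through its own receptor and the common gamma chain, and feeds back on Th17 cells through STAT3. IL-22 belongs to the IL-10 family and acts on epithelial barriers through IL-22RA1 and IL-10RB. IL-17RE pairs with IL-17RA to bind IL-17C, an epithelial cytokine, and has been described on mouse Th17 cells.

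The genes lie at 4 places in the genome (GRCm38, GENCODE M21). Il17a spans chr1:20730905-20734496 on the plus strand, and Il17f lies 42650 bases further on at chr1:20777146-20790617 on the minus strand, so that both form 1 cytokine locus. Il21 spans chr3:37222759-37232636 on the minus strand, Il22 chr10:118204942-118210047 on the plus strand and Il17re chr6:113458484-113470758 on the plus strand. The sequences around the transcription starts of Il17f and Il17a are shown because the first passed the authors' test and its neighbour did not. Each runs from 250 bases before the RefSeq start to 50 bases after it, at chr1:20784221-20784520 (minus strand) for Il17f and chr1:20730655-20730954 (plus strand) for Il17a, in GRCm38.p6. The Il17f window lies inside the GENCODE span of the gene, which reaches further upstream. Capitals mark matches, on either strand, to the core promoter element TATAAA, to AGGTCA, the half-site of nuclear receptors of the ROR type, and to the AP-1 site TGANTCA.
Il17f: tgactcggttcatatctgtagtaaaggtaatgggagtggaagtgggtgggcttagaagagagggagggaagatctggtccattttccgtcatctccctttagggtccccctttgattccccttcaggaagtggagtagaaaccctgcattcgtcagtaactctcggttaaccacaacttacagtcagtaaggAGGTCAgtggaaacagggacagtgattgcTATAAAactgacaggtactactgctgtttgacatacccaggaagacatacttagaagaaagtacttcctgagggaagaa
Il17a: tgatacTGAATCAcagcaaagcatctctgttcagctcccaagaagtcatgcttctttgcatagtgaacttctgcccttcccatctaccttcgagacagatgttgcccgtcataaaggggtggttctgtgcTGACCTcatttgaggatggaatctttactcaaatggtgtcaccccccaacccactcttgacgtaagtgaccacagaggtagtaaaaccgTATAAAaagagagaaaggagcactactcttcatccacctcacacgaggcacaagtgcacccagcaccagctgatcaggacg
Both windows held 1 TATAAA, at position -29 in Il17f and -31 in Il17a counted from the start, and 1 AGGTCA, at -58 in Il17f and, on the other strand, at -120 in Il17a. Of 32851 RefSeq windows of the same length, 13.6% held TATAAA, 16.3% AGGTCA and 2.42% both. A TGANTCA stood at -244 in Il17a, and 7.81% of windows held one. The STAT motif TTCNNNGAA, held by 8.30% of windows, was found in none of the 5 genes' windows on either strand. These matches describe letters and do not show binding.

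Replicate 1 held 21554852 counts in all and replicate 2 held 26916169. The T cell and Th17 markers chosen for this check were present: all 11 had a knockout mean of at least 50 normalized counts, with Cd5 at 19916 and 19393 and Cd4 at 14511 and 13921. Of other cells, the 4 B cell markers summed to 7.74 and 7.59 normalized counts and the 6 myeloid markers to 8.71 and 8.35. Ncr1, a gene of NK cells and of some but not all innate lymphoid cells, had 0 counts in both libraries, which allows up to 2.90 normalized counts in replicate 1 and 2.28 in replicate 2. Sox13, which gamma-delta T cells express, stood at 58.0 and 28.1, and the 6 CD8 T and NK cell markers summed to 1019 and 991, most of it Nkg7. Within that sum Cd8b1 had 274 and 285, while Cd8a, looked up after its values were seen, had 5.80 and 3.04. Trdc and Tcrg-C1 were not analysed here. The wild-type side of the table stood apart: 14 kidney tubule markers summed to 60.9 and 72.9 normalized counts in the knockout libraries, against an implied wild-type mean of 34709, and 8 stromal and smooth muscle markers to 117 and 97.2, against 15326. The implied wild-type mean is the value that the authors' mean over 4 libraries and both knockout values leave for the wild type. It has no spread of its own. The kidney and stromal lists were chosen with earlier results of these data known, so that the gap in their sums is no independent result.

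Il17f was the most abundant of the 5 genes in knockout cells, with normalized counts of 63523 in replicate 1 and 60211 in replicate 2, where a normalized count is the read count divided by the authors' size factor of the library. Il17a followed with 26196 and 28631. Il22 had 9842 and 7909, and Il21 had 3785 and 4280. Il17re had 75.5 and 70.6, from 78 and 93 reads. The ranges of neighbours in this order did not overlap. Together the 5 genes took 0.496% of all counts in replicate 1 (95% Wilson interval 0.493 to 0.499) and 0.495% in replicate 2 (0.492 to 0.498), intervals that cover counting error only. By rank of the knockout mean among 16385 genes, Il17f stood at 13, Il17a at 47, Il22 at 331, Il21 at 1030 and Il17re at 10174.

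**Figure D1:**
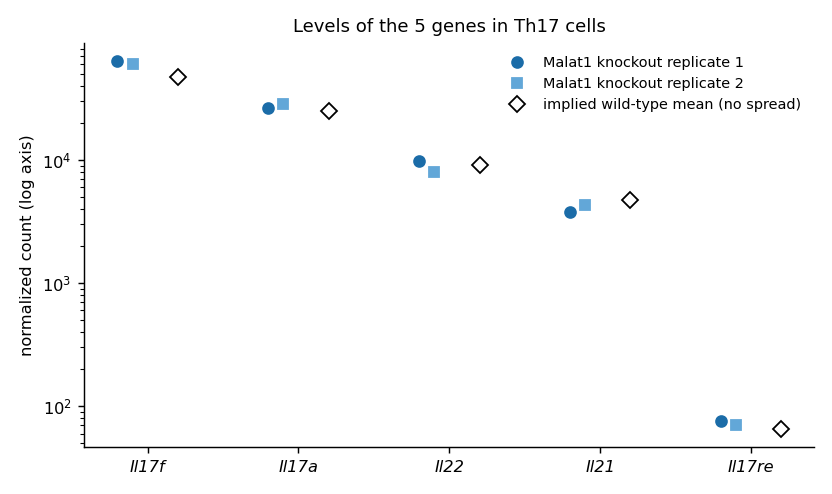
Normalized counts (log axis) of each gene in Malat1 knockout replicate 1 (circles) and replicate 2 (squares), with the implied wild-type mean as an open diamond without spread. The knockout values of Il17f, 63523 and 60211, lie above its diamond at 46851, while those of Il22, 9842 and 7909, lie on either side of its diamond at 9035.

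Levels of different genes can be compared only per length. Divided by the length of all exons annotated for the gene, Il17f averaged 30597 ± 1158 normalized counts per kilobase, Il17a 23410 ± 1471 and Il22 7996 ± 1231 (SD, n = 2 for each). Il21 averaged 767 ± 66.5 and Il17re 12.4 ± 0.587 normalized counts per kilobase (SD, n = 2 for each). The order was thus the same as without length, and the ranges of neighbours again did not overlap. On this scale Il17f ranked 9, Il17a 19 and Il22 89 among genes, while Il21, whose exons span 5259 bases, ranked 1439. Per kilobase of all exons, Il17f exceeded Il17a 1.40-fold in replicate 1 and 1.22-fold in replicate 2. Per kilobase of the longest coding transcript, which at 1178 bases is much shorter than the 2022 bases of all Il17f exons, the ratios were 2.41 and 2.09. In both libraries and on both scales Il17f was the more abundant.

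Il22 differed most between the knockout libraries. Its log2 ratio of replicate 2 over replicate 1 was -0.32, and among 783 genes with a knockout mean within 2-fold of its own 2.94% had a larger absolute ratio. The ratio of Il21 was 0.18, with 15.5% of 2119 genes of like level beyond it, and that of Il17a 0.13, with 46.1% of 154 beyond it. Il17f (-0.077) and Il17re (-0.096) lay within the common spread, with 66.7% of 36 and 77.8% of 1403 genes of like level beyond them. For Il22 the difference was larger than counting error: the exact 95% Poisson intervals were 9652 to 10035 normalized counts in replicate 1 and 7758 to 8063 in replicate 2. For Il17re they were 59.6 to 94.2 and 57.0 to 86.5, so that counting error alone covers its difference.

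**Figure D2:**
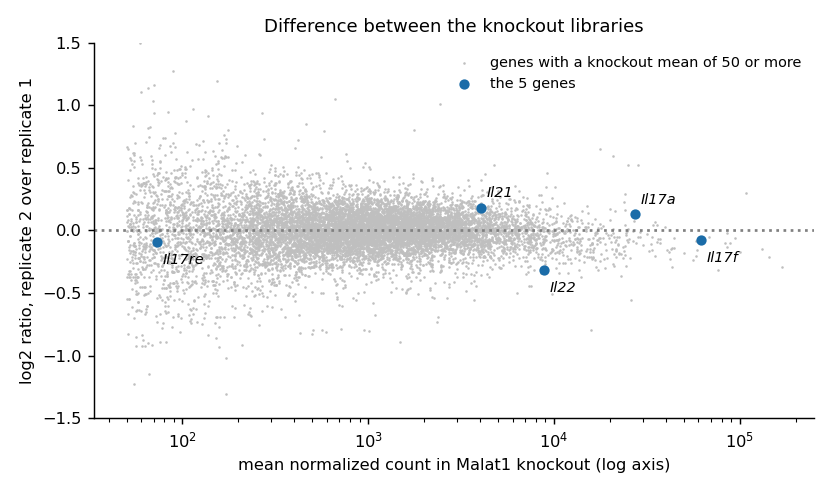
Log2 ratio of replicate 2 over replicate 1 (vertical) against the mean normalized count in Malat1 knockout (log axis), for 10539 genes whose knockout mean was at least 50 (grey, 2 of them beyond the axis) and the 5 genes (blue). Il22 at -0.32 lies at the lower edge of genes of its level and Il21 at 0.18 in the upper part, while Il17f and Il17re lie close to 0.

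Il22 has a near-identical copy in C57BL/6 mice, Iltifb, at chr10:118289629-118295038 on the minus strand. Their coding sequences differ at 9 of 537 bases. A stretch of 120 bases, from base 98 to base 217 of each coding sequence (GENCODE M21, plus strand for Il22 and minus strand for Iltifb), holds 5 of these differences and is printed with them in capitals.
Il22: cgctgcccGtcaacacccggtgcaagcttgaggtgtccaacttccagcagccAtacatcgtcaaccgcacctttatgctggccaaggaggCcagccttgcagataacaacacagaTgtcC
Iltifb: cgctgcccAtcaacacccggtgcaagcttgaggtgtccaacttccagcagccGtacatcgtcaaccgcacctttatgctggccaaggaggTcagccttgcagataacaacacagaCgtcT
Of all windows of 50 bases in the Il22 transcript, 41.0% also occurred in Iltifb, and of windows of 100 bases 20.4%. Reads from such windows cannot be assigned to 1 of the genes, and how the authors treated them is not stated. Iltifb had 32 and 71 counts, or 31.0 and 53.9 normalized counts, which is 0.315% and 0.681% of the Il22 counts. It was thus higher in replicate 2, where Il22 was lower. Counts of both genes are uncertain for this reason. The longest coding transcripts of Il17a, Il17f, Il21 and Il17re shared no window of 50 bases with another gene, and the coding sequences of Il17a and Il17f were identical at 57.4% of aligned positions.

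The messages of the cytokines, but not that of the receptor chain, carried ATTTA pentamers in the 3′ UTR of the longest coding transcript. This motif is the core of the AU-rich elements through which many cytokine messages are turned over. Il22 held 6 in 521 bases and Il17a 7 in 637 bases, densities of 11.5 and 11.0 per kilobase that 0.369% and 0.427% of 15453 genes of the table reached. Il17f held 3 in 621 bases (4.83 per kilobase, reached by 6.67% of genes) and Il21 9 in 2578 bases (3.49 per kilobase, reached by 14.3%). Il17re held 0 in 615 bases, as did 29.6% of genes, and the median gene had 1.29 per kilobase. The 30 bases richest in the pentamer, first such window from the stop codon, are shown for the cytokines with ATTTA in capitals.
Il17a: ATTTAtatgagctATTTAtgaatctATTTA
Il22: tttATTTAttataagtatacattttATTTA
Il21: gtgatttttatATTTAagacaatgtATTTA
Il17f: atgaagttggcataaactattatatATTTA

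Between knockout and wild-type Th17 cells, 1 of the 5 genes rose, 0 fell and 4 did not pass an adjusted p of 0.05 in the authors' deposited table, which holds DESeq2 Wald tests with Benjamini-Hochberg adjustment over the 14481 genes that have an adjusted p. Of these, 0.159% passed, 0.00691% as higher and 0.152% as lower. The gene that rose was Il17f. Its 63523 and 60211 normalized counts in knockout libraries both lay above the implied wild-type mean of 46851, and the authors' deposited table gives a log2 fold change of 0.40 (SE 0.081, adjusted p 0.00124, DESeq2). As a fold this is 1.32, with a 95% interval of 1.183 to 1.475 from that standard error. In a bulk culture, more cells that express a gene and more of its RNA per cell cannot be told apart. All 14 kidney tubule markers and all 8 stromal and smooth muscle markers given above had fold changes below 0 in the authors' deposited table. Dcn, the most abundant of the 8 in knockout, was an exception in size. It had 61.9 and 48.6 normalized counts, against an implied wild-type mean of 55.9, and a log2 fold change of -0.0037 (SE 0.96). Both lists were chosen with earlier results of these data known, so that their direction is no independent result. In these lists, 4 kidney tubule markers (Acy3, Ggt1, Slc3a1 and Hgd) and 1 stromal or smooth muscle marker (Actg2) passed, while 10 and 7 did not. The part of these markers in the result was not tested.

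Il17a had 26196 and 28631 normalized counts in knockout libraries, against an implied wild-type mean of 24826. Both knockout values lay above that mean. Its log2 fold change in the authors' deposited table was 0.15 (SE 0.14, unadjusted p 0.288, adjusted p 1.00, DESeq2), a 1.11-fold difference with a 95% interval of 0.914 to 1.35. This interval overlaps that of Il17f, and the difference between the fold changes of these neighbours was not tested. The standard error of Il17a was large for its level: 10 of 169 genes with a mean within 2-fold of its own had a larger one (median 0.085). For Il17f 18 of 45 such genes did. Within the libraries, Il17f exceeded Il17a 2.42-fold in replicate 1 and 2.10-fold in replicate 2 by normalized count, against 1.89-fold in the implied wild-type means, a ratio to which gene length contributes equally in all.

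Il22 had 9842 and 7909 normalized counts in knockout libraries, against an implied wild-type mean of 9035 that lay between them. Its log2 fold change in the authors' deposited table was 0.0028 (SE 0.14, unadjusted p 0.984, DESeq2), a fold of 1.00 with a 95% interval of 0.831 to 1.21. The log2 ratio to the implied wild-type mean was -0.19 without replicate 1 and 0.12 without replicate 2, so that the sign turned with the library left out. Its copy Iltifb had 31.0 and 53.9 normalized counts in knockout libraries, against an implied wild-type mean of 31.9, and a log2 fold change of 0.54 with an SE of 1.30 in the authors' deposited table (unadjusted p 0.678, DESeq2).

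Il21 had 3785 and 4280 normalized counts in knockout libraries, against an implied wild-type mean of 4769. Both knockout values lay below that mean, and Il21 was the 1 member with a fold change below 0. The authors' deposited table gives -0.21 on the log2 scale (SE 0.25, unadjusted p 0.410, DESeq2), a fold of 0.867 with a 95% interval of 0.618 to 1.22. Its standard error was large for its level: 29 of 1933 genes with a mean within 2-fold of its own had a larger one. The median standard error of those genes was 0.15.

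Il17re had 75.5 and 70.6 normalized counts in knockout libraries, against an implied wild-type mean of 65.9. The log2 fold change of 0.19 in the authors' deposited table has an SE of 0.87 (unadjusted p 0.826, DESeq2), and the 95% interval of the fold runs from 0.350 to 3.73. A change of Il17re within that range would not have passed the test. That standard error was ordinary for its level: 985 of 1701 genes with a mean within 2-fold of its own had a larger one (median 0.92). In the single knockout libraries, counting alone gives a coefficient of variation of 11.3% in replicate 1 and 10.4% in replicate 2, which is not on the scale of that standard error.

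**Figure D3:**
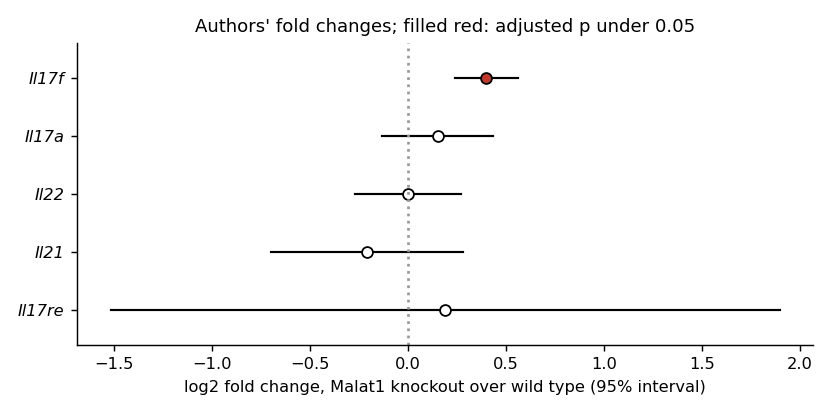
Log2 fold change, Malat1 knockout over wild type, of each gene in the authors' deposited table, with the 95% interval from its standard error as a line. The filled red point, Il17f at 0.40, has an adjusted p under 0.05, and the lines of the other 4 genes cross 0.

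The absence of a call in the other 4 genes does not show equal levels. The smallest absolute Wald statistic, the fold change over its standard error, of a gene that passed was 3.99. At its own standard error, Il17f needed a 1.25-fold difference to reach that value, Il22 a 1.46-fold, Il17a a 1.49-fold, Il21 a 1.99-fold and Il17re an 11.1-fold difference. A rise the size of that of Il17f would therefore have passed in none of the other 4. In the authors' deposited table the median log2 fold change of the 5 genes was 0.15, against -0.0032 over the 10978 genes whose mean was at least 50, of which 49.1% lay above 0. The 11 T cell and Th17 markers lay on the same side, with a median of 0.14 in the authors' deposited table. Of them, 9 lay above 0 and 0 passed the adjusted p, where 0.159% of all tested genes did. In that table Cd5, the most abundant of them, had a log2 fold change of 0.18 (SE 0.081). Ccr6, a chemokine receptor of Th17 cells looked up after its values were seen, had 0.40 (SE 0.18, unadjusted p 0.0298, adjusted p 1.00, DESeq2). The 2 markers below 0, also looked up then, were Maf at -0.42 (SE 0.27) and Ahr at -0.20 (SE 0.28) in the authors' deposited table.

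**Figure D4:**
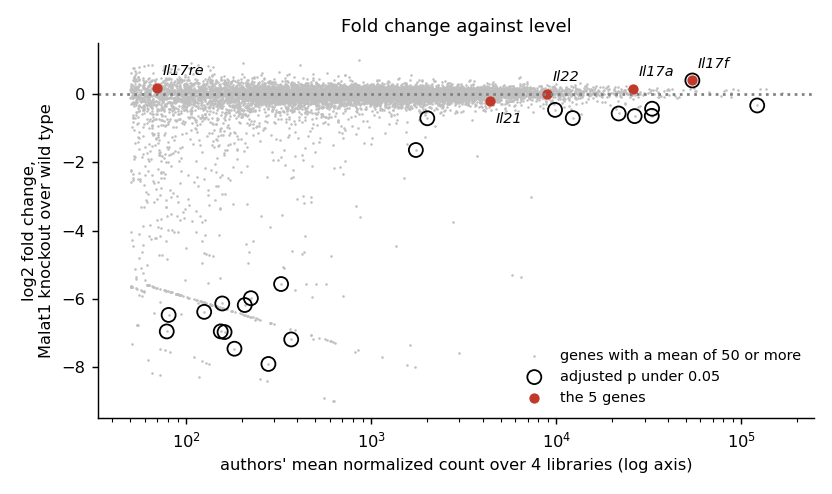
Log2 fold change, Malat1 knockout over wild type, against the authors' mean normalized count over 4 libraries (log axis), for genes with a mean of 50 or more (grey), those with an adjusted p under 0.05 (open circles) and the 5 genes (red). Il17f at 0.40 is the 1 red point with an open circle around it, and the other circled genes all lie below 0.

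The ligands and receptors of these pathways showed which partners the knockout cells carried. Of the other IL-17 family ligands, Il17c had 1 and 3 counts and Il17d 1 and 0, and Il17b and Il25 were not analysed here. Of the 4 measured ligands, 1 rose (Il17f) and 3 did not pass, 1 of them without an adjusted p. Of 5 receptor genes 0 passed, where 0.159% of all tested genes did. Il17ra, the chain shared by most receptors of the family, had 2703 and 2212 normalized counts, against an implied wild-type mean of 2086, and the authors' deposited table puts its log2 fold change at 0.24 (SE 0.25). The knockout cells thus held Il17ra and, at a low level, its partner Il17re. Il17rc, the partner for IL-17A and IL-17F, had 2 and 6 counts, and Il17rd stood at 36.8 and 30.4 normalized counts. Il17rb, looked up after its values were seen, had 0 and 1 counts, and a fold change from such counts is not given.

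Receptors for IL-21 were abundant and the specific chain for IL-22 was not detected. Il21r had 14338 and 12818 normalized counts in knockout libraries, against an implied wild-type mean of 11764, and Il2rg, the common gamma chain, had 6073 and 5717, against 5293. Their log2 fold changes in the authors' deposited table were 0.21 (SE 0.12) and 0.16 (SE 0.12), and neither passed (DESeq2). Il10rb, the chain that IL-22 and IL-10 receptors share, stood at 505 and 481, against 560. Il22ra1, the chain specific to IL-22 and related cytokines, was looked up after its values were seen and had 0 counts in both libraries, and Il22ra2, the soluble IL-22 binding protein, had 0 and 1. Of these 5 genes 0 passed in either direction, where 0.159% of all tested genes did, and 2 had no adjusted p.

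Of 24 genes that carry or restrain the IL-17 receptor signal, 0 rose, 0 fell and 24 did not pass, where 0.159% of all tested genes passed. An unadjusted p under 0.05 (DESeq2), held by 2.11% of all genes, was found in 0 of the 24. The most abundant were Nfkb1, a subunit of NF-κB, at 16195 and 17271 normalized counts, against an implied wild-type mean of 16133, and Tnfaip3, an inhibitor of NF-κB signalling, at 6386 and 6270, against 6862. Nfkbia, another inhibitor, followed at 6104 and 6492, against 6255, and Traf4, an adaptor that competes in IL-17 signalling, at 4194 and 3733, against 3646. Traf3ip2, which encodes the adaptor Act1 that binds IL-17 receptors, was looked up after its values were seen. It had 1084 and 977 normalized counts, against 905, and the authors' deposited table puts its log2 fold change at 0.19 (SE 0.24). The median of the list's log2 fold changes in the authors' deposited table was 0.026, with 17 genes above 0 and 7 below. The list mixes both roles, so that this median gives no direction of the signal.

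Of 16 other cytokine genes of T cells 0 passed in either direction, and 11 lay below 0 in the authors' deposited table (median log2 fold change -0.35). The most abundant was Lif, an IL-6 family cytokine, with 17869 and 18157 normalized counts, against an implied wild-type mean of 18022. Lta, encoding lymphotoxin alpha, had 4977 and 4396, against 3726, and the authors' deposited table puts its log2 fold change at 0.34 (SE 0.20, unadjusted p 0.0859, DESeq2). Tgfb1 had 4622 and 4386, against 4629. Il2, the growth factor of T cells, had 1615 and 3247, against 3376, a wide spread between libraries, and the authors' deposited table gives -0.52 on the log2 scale with an SE of 0.76. By the authors' test Il17f was thus the 1 cytokine of these lists that passed. It was also the 1 gene of all 14481 that passed as higher. With 0.159% of these genes passing in either direction, 0 calls in a short list say little about its genes.

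**Figure D5:**
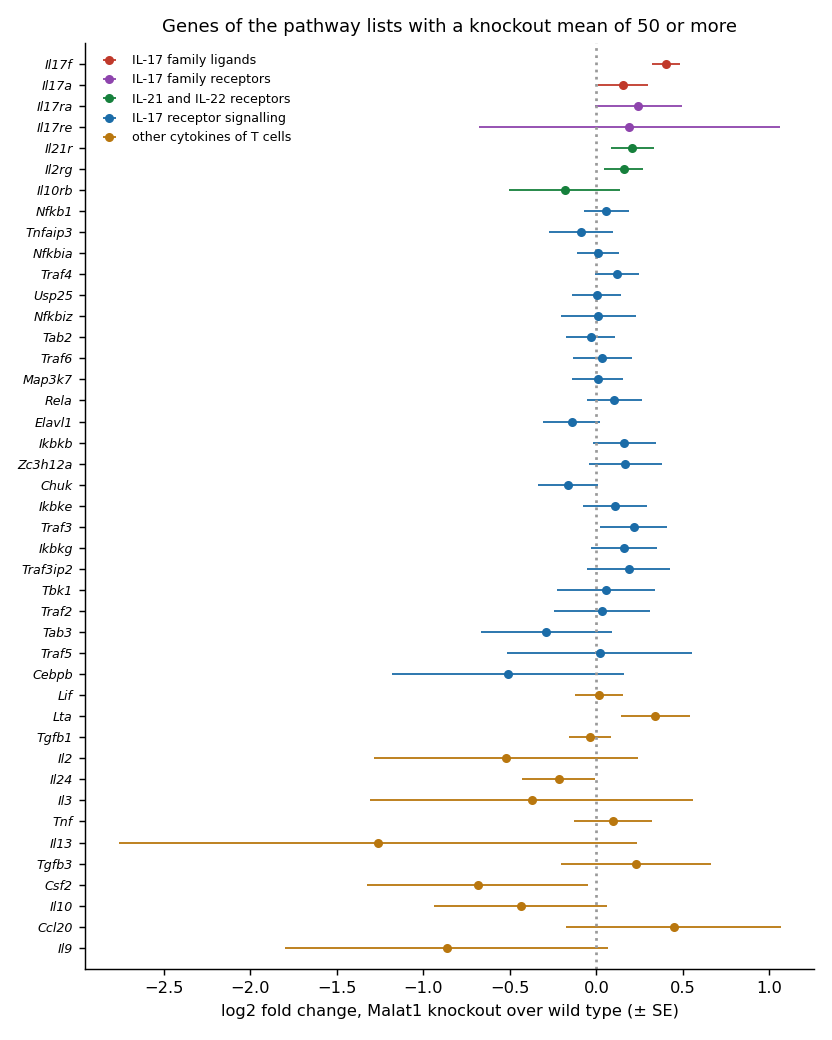
Log2 fold change, Malat1 knockout over wild type, with its standard error, for the 43 genes of the ligand, receptor, signalling and cytokine lists whose knockout mean was at least 50, coloured by list and ordered by level within it. Il17f at the top, at 0.40, is the 1 gene with an adjusted p under 0.05, and the bars lengthen towards the less abundant cytokines.

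Apart from Il17f, itself the neighbour of Il17a, no gene next to a member passed, where 0.159% of all tested genes did. Adad1 and Gm32802 had no adjusted p. Mcm3, a subunit of the replicative helicase and the neighbour of Il17f at 12351 bases, had 5535 and 5849 normalized counts, against an implied wild-type mean of 5462, and the authors' deposited table puts its log2 fold change at 0.062 (SE 0.14). On the other side, 112841 bases before Il17a, Pkhd1, a gene of the kidney tubule, had 1 and 2 counts, against an implied wild-type mean of 81.6. Paqr8, the next gene beyond Mcm3, had 0.21 (SE 0.33) by the authors' deposited table. Il2 lies 96800 bases from Il21. Both had log2 fold changes below 0 that did not pass, -0.52 (SE 0.76) for Il2 and -0.21 (SE 0.25) for Il21. Adad1, on the same side as Il2, had 1 and 2 counts. Cetn4 (0.17, SE 0.47) and Bbs12 (0.34, SE 0.47) on the other side of Il21 did not pass in the authors' deposited table. Rap1b, a small GTPase 358907 bases from Il22, had 9636 and 11034 normalized counts, against 13011, and the authors' deposited table puts its log2 fold change at -0.34 (SE 0.12, unadjusted p 0.00455, adjusted p 0.765, DESeq2). Mdm1, nearer to Il22, had -0.11 by the authors' deposited table (SE 0.40), and Gm32717 and Gm32802 had 0 counts and at most 1 count. Beside Il17re, the authors' deposited table has Jagn1 (-0.077, SE 0.28), Rpusd3 (-0.0010, SE 0.46) and Creld1 (-0.13, SE 0.33) without a call, and Il17rc, which starts 669 bases after the end of Il17re on the same strand, was nearly without counts. Gm12534, which overlaps Il21 on the other strand, was not analysed here, and without a stated strand setting reads of the 2 cannot be told apart.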

How the data were processed

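RNA of 2 Malat1 knockout Th17 libraries, made from ribosome-depleted total RNA and sequenced on an Illumina instrument per the labels' protocols, was analysed from 1 deposited table. Its read counts per gene are whole numbers deposited by the authors. The normalized counts, a signal, were made by the authors as counts over 1 size factor per library, per the file headers and values, and their mean over 4 libraries is also deposited. For knockout over wild type the authors deposited log2 fold changes, standard errors, a Wald statistic (a score), p-values and adjusted p-values. The submitters' processing notes name STAR 2.6.1a, featureCounts, DESeq2 1.18.1 and mm10. Not given in the sources used here are the annotation, the strand setting, the treatment of multi-mapped reads and the model factors. The authors label the fit multifactor without naming its factors. Its fold changes may therefore hold an adjustment that ratios to the implied wild-type mean do not.

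The table's other 4 per-sample columns are of wild-type libraries that are no samples here. They were left out, although their values for the 5 genes had been displayed. No new test of genotype was run on counts for this reason. Only after centring or a GC trend was a p-value recomputed, from the shifted fold change and the deposited standard error. A gene was called at an adjusted p under 0.05, as deposited, and 1904 genes without one stayed without. The knockout mean lay on the side of the authors' mean that the sign of the fold change gives in 97.8% of genes. The wild-type mean was implied from the mean over 4 libraries and the knockout values. Intervals of folds use 1.96 standard errors. All 5 genes had an adjusted p and a mean of 50 or more. Gene models, lengths and transcripts come from GENCODE M21, in which 16371 of 16385 gene IDs were found without their version and the 5 members with it, and promoters from RefSeq (GRCm38.p6), in which all 5 matched. The implied mean and the adjustment were tested on simulated data. Alternatives were other sets of genes for the adjustment, centring, a GC trend, edgeR TMM factors (edgeR 4.0.16, R 4.3.3), total counts, a threshold of 0.10 and each replicate left out. Python 3.11.15 with pandas 2.3.3, scipy 1.17.1 and biopython 1.88 was used. The members and 12 gene lists were chosen with earlier results of these data known. Named were the members, at most 4 genes of each list by knockout mean, any that passed, and the nearest 2 measured genes on each side of a member within 500 kb, and others are said to have been chosen after their values were seen. Malat1 itself is not analysed here.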

Additional observations from a re-analysis of the deposited data

How the results depend on the processing

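Il17f kept its direction and its call in 6 settings. P-values were adjusted over all genes, over genes with a mean of 50 or more, or without 235 genes near-absent from knockout. Near-absent was below 2% of an implied wild-type mean of at least 100. The other settings were centring, a GC trend subtracted and a threshold of 0.10. Log2 fold changes of Il17f were 0.40 throughout, with adjusted p from 0.000944 to 0.00284 (DESeq2 Wald tests, normal tests after centring and the GC trend). Those normal tests set the shifted fold change against the authors' standard error, and the GC trend gave the highest adjusted p. Another set of genes or threshold leaves the fold change and p-value of Il17f as they are. The other 4 members stayed without a call in these 6 settings, with adjusted p of 1.00. As the log2 ratio of 1 knockout library to the implied wild-type mean, with no test, leaving out each replicate gave 0.36 to 0.44 for Il17f, 0.077 to 0.21 for Il17a, -0.33 to -0.16 for Il21, -0.19 to 0.12 for Il22 and 0.100 to 0.20 for Il17re. With total counts in place of size factors, the log2 ratio of replicate 2 over replicate 1 was 0.16 for Il17a and -0.048 for Il17f, beyond counting error of the values reported. Over all genes, 23 passed in the authors' table and 9 without near-absent genes, which made up 12 of the 23. At a threshold of 0.10, 2 genes were higher. No paired analysis was possible because the labels give 1 group. With 2 libraries of 1 genotype, the spread of the wild type cannot be given.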

Other observations

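The knockout libraries differed from each other in several cytokine genes outside the IL-17 family. Of 17 cytokine genes whose knockout mean was at least 50, 9 (52.9%) had a log2 ratio of replicate 2 over replicate 1 beyond 0.5 in either direction, against 2.52% of 10539 genes of at least that level. This comparison was chosen after the values were seen, and it does not match genes on level. Ccl20, a chemokine that attracts CCR6+ cells, had 92.9 normalized counts in replicate 1 and 213 in replicate 2. Il2 had 1615 and 3247, Il3 1281 and 2231, Csf2 315 and 521, Il9 94.8 and 178, and Il13 602 and 917 normalized counts in replicates 1 and 2. In the other direction, Tgfb3 had 635 and 357, Il24 2950 and 1825 and Il10 222 and 146. Il22, at 9842 and 7909, was lower in replicate 2 too, and Il17a, Il17f and Il21 had log2 ratios of 0.13, -0.077 and 0.18. No test can be run with 1 library on each side.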
